A study of Mus musculus with 8 samples.

Results

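The genes described here encode the stacked scaffolds of the excitatory postsynaptic density: the Shank proteins (Shank1, Shank2, Shank3), the Homer proteins (Homer1, Homer2, Homer3), 2 membrane-associated guanylate kinases (Dlg2, which encodes PSD-93, and Dlg4, which encodes PSD-95) and 2 SAPAP proteins (Dlgap1 and Dlgap3). They were taken by gene symbol, and all 10 were among the 32531 genes counted in every library. Of these, 9 passed the filter on low counts that left 12467 genes for testing, and Homer3 did not. The guanylate kinase proteins lie under the membrane and hold glutamate receptors. SAPAP proteins join them to the Shank proteins below, and Homer proteins bind Shank, group I metabotropic glutamate receptors and inositol trisphosphate receptors. In the striatum this lattice sits in the spines of projection neurons, where cortical and thalamic axons end, and mice without Shank3 or Dlgap3 are known for excessive grooming.

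RNA on tagged ribosomes was sequenced from nucleus accumbens (4 libraries) and from dorsal striatum (4 libraries) of Drd1-EGFP/Rpl10a (CP73) mice, all aged to more than 20 months and untreated. In this line the promoter of the dopamine receptor gene Drd1 drives a fusion of green fluorescent protein to the ribosomal protein L10a, and polysomes that carry it were pulled down with antibodies against the fluorescent part. Both groups share transgene and age class and differ by region in the labels, and no young mice, other cell types or unpurified tissue were analysed here. Whether a library came from 1 animal or from several is not stated. The p-values therefore reflect the spread among these libraries, which may be technical. Gene counts ran from 10831937 to 12639641 in accumbens libraries and from 7466970 to 10363145 in dorsal striatum libraries. Levels are in CPM, read counts relative to the TMM-scaled library size, and fold changes are accumbens over dorsal striatum.

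Markers of the tagged neurons were present in every library. Drd1 stood at 363 to 555 CPM in accumbens and at 533 to 669.6 CPM in dorsal striatum (log2 fold change -0.47, SE 0.14, with adjusted p = 0.0625, edgeR quasi-likelihood test). Rpl10a, whose protein is tagged, averaged 206 ± 25.2 CPM in accumbens and 194 ± 35.3 CPM in dorsal striatum (SD, n = 4 each, adjusted p = 0.868). Of 9 markers of direct-pathway neurons 1 was called higher and 2 lower in accumbens. All 10 markers of projection neurons had negative log2 fold changes and 5 were called lower in accumbens, with a summed level of 11002 to 12415 CPM in accumbens and 14384 to 16343 CPM in dorsal striatum. All 7 markers of indirect-pathway neurons, which the promoter should not tag, had positive log2 fold changes and 3 were called higher, with sums of 667 to 945 CPM in accumbens and 252 to 355 CPM in dorsal striatum. Fewer cells of a type and less RNA per cell cannot be told apart in such libraries. Accumbens 2 and dorsal striatum 3 lay at opposite ends of the first principal component, so Shank1 and Homer1 are also given without both.

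Of the 9 tested scaffold genes, 2 differed between regions (edgeR, quasi-likelihood F test, adjustment by Benjamini and Hochberg over all tested genes, threshold 0.05), where 3.82% of all tested genes did. Shank1 was higher in accumbens, a direction in which 1.63% of tested genes were called, and Homer1 was lower, a direction in which 2.19% were. The values of the regions did not overlap for 3 of the 9, Shank1, Shank2 and Homer1, against 9.69% of all tested genes. Accumbens was above in 4.51% and below in 5.18% of them. Across the 9 genes 5 log2 fold changes were positive and 4 negative, with a median of 0.12, and the median over all tested genes was 0.02. Unadjusted p was under 0.05 for 4 of the 9, Shank2 and Dlg2 among them, and for 15.01% of all tested genes.

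**Figure D1:**
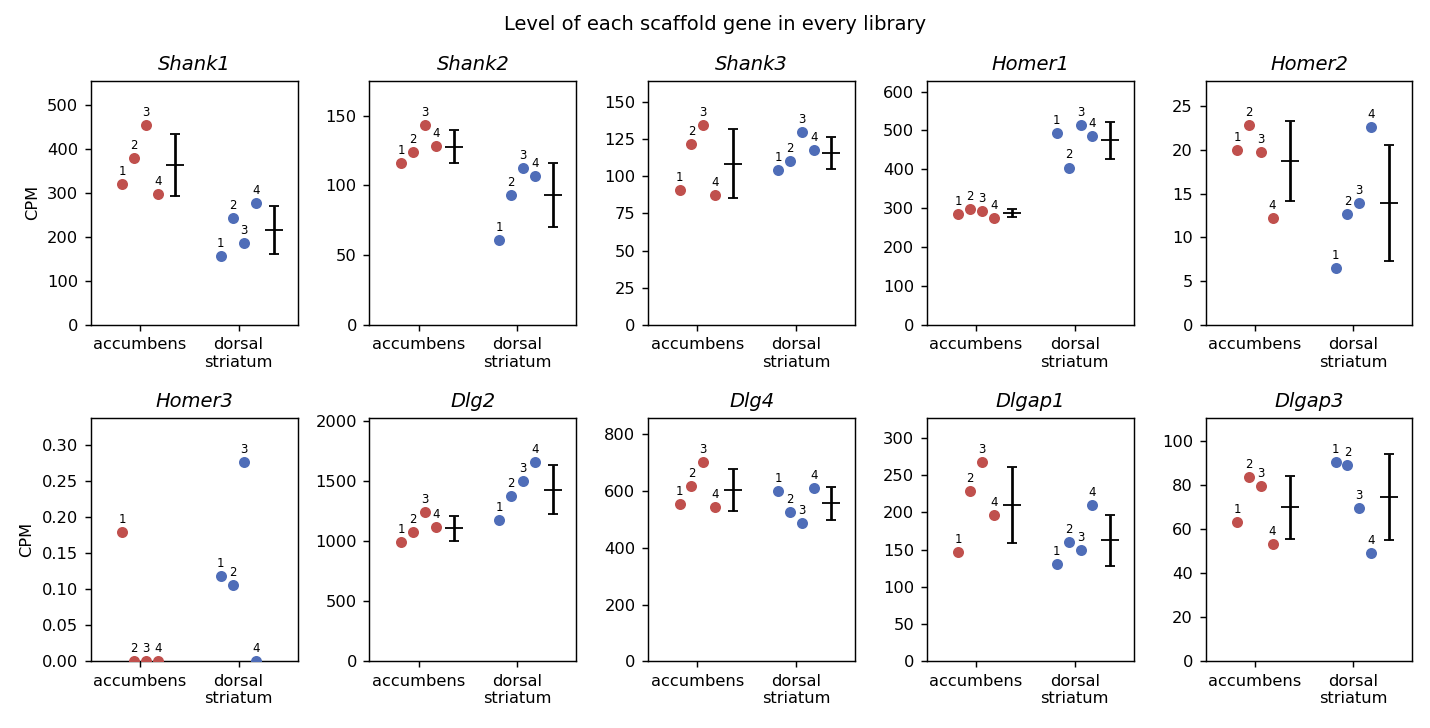
CPM of each of the 10 scaffold genes in the 4 accumbens libraries (left, red) and the 4 dorsal striatum libraries (right, blue). Each point is 1 library with its replicate number, the bars are mean ± SD (not drawn for Homer3), and each panel has its own linear axis from 0. Every accumbens point lies above every dorsal striatum point for Shank1 and Shank2, and below for Homer1.

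Homer1 was the scaffold gene with the smallest p and was lower in accumbens. It spans chromosome 13 from 93299635 to 93405129 on the plus strand (GRCm38, GENCODE M21). Long Homer1 forms cross-link their ligands through a coiled coil, and a short form, Homer1a, which neuronal activity induces, lacks it. The counts pool both, since they were made per gene. The sequence around the RefSeq starts of Homer1 is shown because it is the 1 called gene with a promoter entry. A further reason is that cyclic AMP response elements, of which TGACGT is a part, are a known feature of promoters that neuronal activity induces. Both of these starts lie downstream of the first base of the gene span given above. The promoter table (RefSeq, GRCm38.p6) held windows for 8 of the 10 genes, with no entry for Shank1 and Shank2. Each window of 300 bases runs from 250 bases before a start to 50 bases after it. Capitals mark the motif TGACGT, searched on both strands.
Homer1, first start, chr13:93303507-93303806, plus strand: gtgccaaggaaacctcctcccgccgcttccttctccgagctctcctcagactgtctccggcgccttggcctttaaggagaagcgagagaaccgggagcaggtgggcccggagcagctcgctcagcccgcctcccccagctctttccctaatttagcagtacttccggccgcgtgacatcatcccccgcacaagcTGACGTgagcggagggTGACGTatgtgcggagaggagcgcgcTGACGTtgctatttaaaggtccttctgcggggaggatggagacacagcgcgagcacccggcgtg
Homer1, second start, chr13:93307784-93308083, plus strand: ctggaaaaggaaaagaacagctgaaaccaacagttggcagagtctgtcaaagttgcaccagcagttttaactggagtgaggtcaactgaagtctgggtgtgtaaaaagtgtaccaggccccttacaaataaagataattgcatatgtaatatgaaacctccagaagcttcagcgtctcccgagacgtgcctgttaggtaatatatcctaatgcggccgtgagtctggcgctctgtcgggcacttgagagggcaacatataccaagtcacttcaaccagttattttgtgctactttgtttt
Homer2, first start, chr7:81706876-81707175, minus strand: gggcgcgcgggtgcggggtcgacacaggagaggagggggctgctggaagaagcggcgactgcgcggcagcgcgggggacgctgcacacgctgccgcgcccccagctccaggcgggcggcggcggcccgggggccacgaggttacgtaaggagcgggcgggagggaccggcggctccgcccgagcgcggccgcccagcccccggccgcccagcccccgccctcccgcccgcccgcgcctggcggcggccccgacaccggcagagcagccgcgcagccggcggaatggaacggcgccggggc

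The first Homer1 window held TGACGT 3 times, at bases 195, 211 and 237 of the window, all upstream of the start. At least 1 copy was found in 7.51% of the 32851 windows in the table and at least 3 in 0.201%. A full palindrome TGACGTCA counts as 2 there, since it holds the motif on each strand. The first Homer1 window held 0 copies of that palindrome, which 1.79% of windows held at least once. It held the shorter TGACG 3 times, and 1.03% of windows held at least 3 of those. The second Homer1 window and both Homer2 windows held no TGACGT, nor did any window of Shank3, Homer3, Dlg2, Dlg4, Dlgap1 or Dlgap3. The shorter TGACG was found 1 time in the third Dlg4 window. The first windows of Homer1 and Homer2 also differed in base composition, at 63.0% and 82.3% G and C. A match of letters is a description of the sequence and not a measured binding site.

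Homer1 stood at 284, 297, 294 and 274 CPM in accumbens 1 to 4, against 493, 405, 514 and 486 CPM in dorsal striatum 1 to 4. The accumbens values were the tightest of any scaffold gene, with a coefficient of variation of 3.59%, and all lay below the lowest dorsal striatum value. Mean levels were 287 ± 10.3 CPM in accumbens and 474 ± 48.1 CPM in dorsal striatum (SD, n = 4 each), log2 fold change -0.72 with SE 0.12 (adjusted p = 8.01e-04, edgeR). The call held with each library left out in turn (log2 fold change -0.79 to -0.68, adjusted p = 8.65e-04 to 0.00610) and without both accumbens 2 and dorsal striatum 3 (-0.70, adjusted p = 0.00706). When a score of glial markers (astrocytes, oligodendrocytes and microglia) entered the fit, the log2 fold change was -0.61 and not called (adjusted p = 0.0505). That score ran from 0.09 to 0.74 in accumbens and from -1.05 to 0.48 in dorsal striatum. Only dorsal striatum 2 lay within the accumbens range, so the glial score and region are partly confounded.

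The glial marker sums overlapped between regions for astrocytes and oligodendrocytes, and those of microglia were higher in every accumbens library. Log2 fold changes were positive for 7 of 8 tested astrocyte markers and 5 of 5 oligodendrocyte markers, against 51.8% of all tested genes. Of these markers 0 were called. Of the 9 astrocyte markers all had counts, with sums of 259 to 708 CPM in accumbens and 199 to 380.3 CPM in dorsal striatum. All 8 oligodendrocyte markers had counts, summing to 127 to 323 CPM in accumbens and 121.5 to 191 CPM in dorsal striatum. Of 8 microglia markers 7 had counts, C1qa being at 0, with sums of 4.80 to 15.3 CPM in accumbens and 0.985 to 4.24 CPM in dorsal striatum. Markers of interneurons summed to 76.8 to 169 CPM in accumbens and 37.4 to 139 CPM in dorsal striatum, and those of endothelial and mural cells to 8.44 to 297 CPM in accumbens and 7.57 to 112 CPM in dorsal striatum. All 4 tested interneuron markers and all 7 tested endothelial and mural markers had positive log2 fold changes, with 0 called. The part of these last markers in the scaffold results was not tested. With the indirect-pathway markers as a covariate the log2 fold change of Homer1 was -0.51 (adjusted p = 0.724), but that covariate ran from 0.37 to 0.83 in accumbens and from -1.15 to -0.24 in dorsal striatum, so it and region cannot be told apart.

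Homer2, a paralog with the same domain plan, averaged 1.48 ± 0.362 CPM per kilobase of exon in accumbens and 1.10 ± 0.528 in dorsal striatum (SD, n = 4 each). It had 20.0, 22.9, 19.8 and 12.2 CPM in accumbens, against 6.51, 12.6, 13.97 and 22.7 CPM in dorsal striatum, and the regions overlapped (log2 fold change 0.42, SE 0.36, with adjusted p = 0.672, edgeR). Homer2 lies on chromosome 7 from 81600481 to 81707527. Homer3, known from cerebellar Purkinje cells and on chromosome 8 from 70282827 to 70294361, had 2 counts over the accumbens libraries and 4 over the dorsal striatum libraries. No library held more than 2, under the 3 counts that a count of 0 allows, which correspond to 0.237 to 0.277 CPM in accumbens and 0.289 to 0.402 CPM in dorsal striatum. Of its annotated exon length, 25.4% also overlaps Ddx49 on the other strand.

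The Homer family was almost all Homer1 on a per-length scale (CPM per kilobase of annotated exon), which allows levels of different genes to be compared. Homer1 made up 94.2% ± 1.24 of the family's summed level in accumbens and 97.2% ± 1.20 in dorsal striatum (SD, n = 4 each). Homer2 held 6.26%, 6.81%, 6.001% and 4.04% in accumbens, against 1.24%, 2.87%, 2.51% and 4.24% in dorsal striatum. Among accumbens libraries its share was lowest in accumbens 4, and among dorsal striatum libraries it was highest in dorsal striatum 4. These were the 1 pair of libraries by which the regions overlapped. These shares are descriptions without a test.

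Shank1 lies on chromosome 7 from 44310253 to 44360572, on the plus strand, and encodes the Shank protein best known from cortical and hippocampal spines, where it enlarges spine heads. It stood at 321, 379.9, 455 and 298 CPM in accumbens 1 to 4, against 156, 243, 186 and 276 CPM in dorsal striatum 1 to 4. All accumbens values lay above all dorsal striatum values, though accumbens 4 and dorsal striatum 4 were close. Means were 363 ± 69.8 CPM in accumbens and 215 ± 54.3 CPM in dorsal striatum (SD, n = 4 each), 1.69-fold higher in accumbens (log2 fold change 0.76, SE 0.17, with adjusted p = 0.0142, edgeR). Its call was lost without accumbens 3 (log2 fold change 0.64, adjusted p = 0.0675), without dorsal striatum 1 (0.63, adjusted p = 0.0612), without dorsal striatum 3 (0.69, adjusted p = 0.0654) and without both accumbens 2 and dorsal striatum 3 (0.67, adjusted p = 0.0990). When the glial score entered the fit, its log2 fold change of 0.84 was not called (adjusted p = 0.0767), and with the indirect-pathway covariate, which separates the regions, it was 1.16 (adjusted p = 0.539). Of its exon length 3.22% overlaps a gene on the other strand, 1700008O03Rik.

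Shank2, on chromosome 7 from 144001928 to 144424494, encodes a Shank protein found early at synapses. It stood at 116, 124, 143 and 129 CPM in accumbens, against 61.1, 93.1, 112 and 107 CPM in dorsal striatum. No accumbens value fell to the dorsal striatum values, and dorsal striatum 1 was the lowest library. The difference was not called (log2 fold change 0.46, SE 0.18, with adjusted p = 0.207, edgeR), and without dorsal striatum 1 the log2 fold change was 0.30 (adjusted p = 0.484).

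Shank3 is the Shank gene best known from striatal projection neurons and lies on chromosome 15 from 89499623 to 89560261. It had 91.1, 122, 135 and 87.3 CPM in accumbens, against 104, 110.3, 129.6 and 118 CPM in dorsal striatum. The regions overlapped throughout, with accumbens holding both the highest and the lowest value. Means were 109 ± 23.2 CPM in accumbens and 116 ± 10.9 CPM in dorsal striatum (SD, n = 4 each, log2 fold change -0.09, SE 0.17, with adjusted p = 0.877, edgeR). Without accumbens 4, or with the glial covariate, the log2 fold change was 0.00 and 0.01, so no direction can be given.

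The make-up of the Shank family differed between the libraries of the 2 regions. Per kilobase of exon, Shank1 held 59.6%, 59.4%, 60.7% and 57.0% of the summed Shank level in accumbens 1 to 4, against 46.5%, 52.8%, 41.9% and 53.5% in dorsal striatum 1 to 4. Shank3 held 19.4%, 21.7%, 20.6% and 19.1% in accumbens, against 35.7%, 27.4%, 33.4% and 26.2% in dorsal striatum. Neither range overlapped between regions, and the accumbens shares were the more uniform. Shank2 held 20.7% ± 2.45 in accumbens and 20.6% ± 2.91 in dorsal striatum (SD, n = 4 each). In raw counts, which need no library scaling, the ratio of Shank1 to Shank3 was 3.52, 3.12, 3.38 and 3.42 in accumbens, against 1.49, 2.20, 1.43 and 2.34 in dorsal striatum. With the length of the longest coding transcript in place of all exons, Shank1 held 55.9% ± 1.57 in accumbens and 45.3% ± 5.47 in dorsal striatum (SD, n = 4 each). Shares and ratios were not tested.

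**Figure D2:**
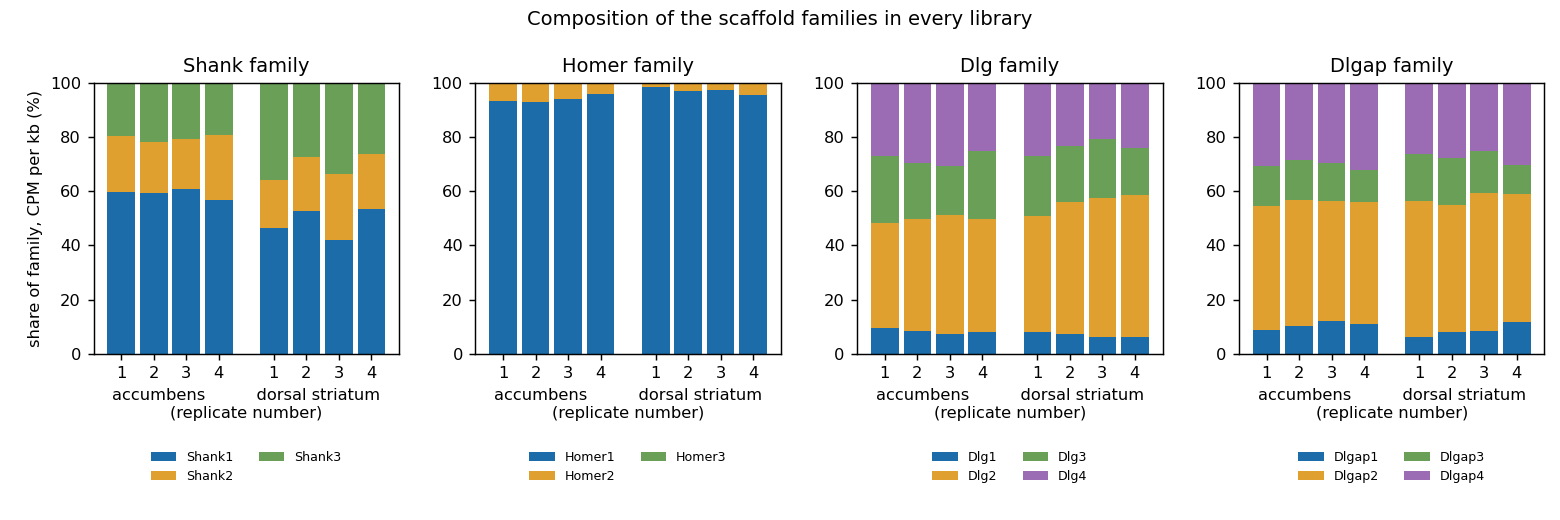
Composition of the Shank, Homer, Dlg and Dlgap families in each library, as the percent of the family's summed level in CPM per kilobase of annotated exon, with the accumbens libraries left of the dorsal striatum libraries. Shank1 takes 57.0% to 60.7% of the Shank bar in accumbens and 41.9% to 53.5% in dorsal striatum, and Homer1 takes at least 93.2% of the Homer bar in every library.

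Dlg2 encodes PSD-93 and had the highest level per kilobase of the 10 genes in both regions. The gene is also the longest of them, from 90476672 to 92449247 on chromosome 7, with 17 annotated transcripts. It stood at 991, 1073, 1244 and 1113 CPM in accumbens, against 1175, 1373, 1499 and 1660.1 CPM in dorsal striatum. The regions overlapped only through accumbens 3 and dorsal striatum 1, and the difference was not called (1105 ± 106 CPM in accumbens and 1427 ± 205 CPM in dorsal striatum, SD, n = 4 each, log2 fold change -0.37, SE 0.12, with adjusted p = 0.107, edgeR). Without dorsal striatum 1 the log2 fold change was -0.45 (adjusted p = 0.0532).

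Dlg4 encodes PSD-95, the core guanylate kinase of the density, and lies on chromosome 11 from 70016942 to 70047522. It had 554, 617, 704 and 546 CPM in accumbens, against 599.8, 528, 488 and 612 CPM in dorsal striatum, with overlap (log2 fold change 0.12, SE 0.12, with adjusted p = 0.737, edgeR). The raw count ratio of Dlg2 to Dlg4 was 1.79, 1.74, 1.77 and 2.04 in accumbens, against 1.96, 2.60, 3.07 and 2.71 in dorsal striatum. Dorsal striatum 1 was the 1 dorsal library whose ratio lay within the accumbens range. With the paralogs Dlg1 and Dlg3 counted in, Dlg2 held 41.6% ± 2.05 of the family's per-length level in accumbens and 48.97% ± 4.41 in dorsal striatum, and Dlg4 28.0% ± 2.46 in accumbens and 23.6% ± 2.54 in dorsal striatum (SD, n = 4 each).

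Neither SAPAP gene was called. Dlgap1, on chromosome 17 from 69969073 to 70821413, had 147, 229, 268 and 197 CPM in accumbens, against 130.2, 160.3, 149.7 and 210.3 CPM in dorsal striatum (log2 fold change 0.37, SE 0.18, with adjusted p = 0.344, edgeR). Accumbens 1 and 4 lay inside the dorsal striatum range, and dorsal striatum 2, 3 and 4 lay inside that of accumbens. Dlgap3, the SAPAP gene best known from the striatum, lies on chromosome 4 from 127169204 to 127237022. Its values were 63.5, 83.6, 79.6 and 53.2 CPM in accumbens, against 90.8, 89.3, 69.9 and 49.4 CPM in dorsal striatum (log2 fold change -0.10, SE 0.21, with adjusted p = 0.903, edgeR). Dorsal striatum held both its highest and its lowest library, and the direction turned without accumbens 4 (0.02), dorsal striatum 1 (0.01) or dorsal striatum 2 (0.00). Among the SAPAP genes Dlgap3 made up 13.9% ± 1.41 of the per-length level in accumbens and 15.3% ± 3.21 in dorsal striatum (SD, n = 4 each).

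**Figure D3:**
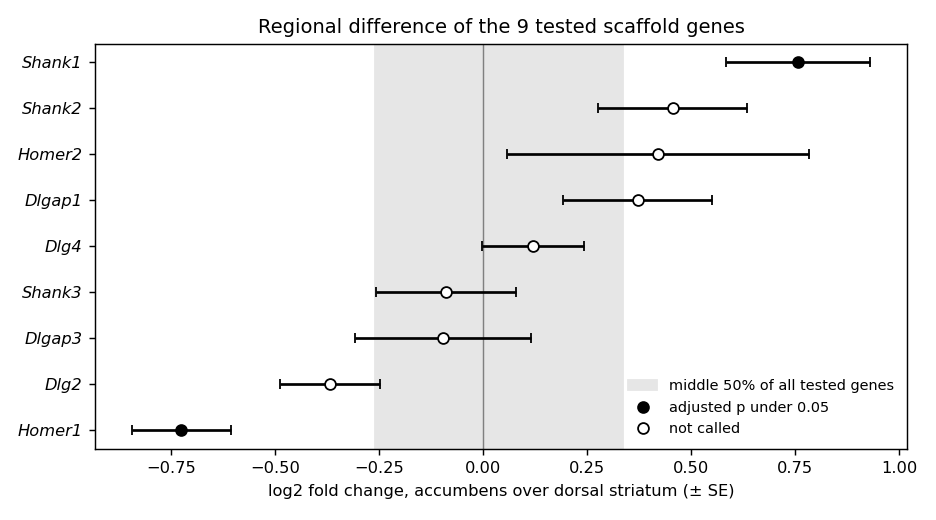
Log2 fold change, accumbens over dorsal striatum, of the 9 tested scaffold genes (points, bars ± SE, filled where the adjusted p is under 0.05), with the middle 50% of all tested genes in grey (-0.26 to 0.34). Shank1 (0.76) and Homer1 (-0.72) are the 2 filled points.

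The order of Shank1 and Homer1 by level depended on the length used. Per kilobase of all annotated exons, the order in accumbens was Dlg2 (67.9 ± 6.49 CPM per kilobase), Dlg4 (45.7 ± 5.53), Shank1 (34.6 ± 6.64), Homer1 (24.0 ± 0.860), Dlgap3, Shank2, Shank3, Dlgap1, Homer2 and Homer3. In dorsal striatum it was Dlg2 (87.7 ± 12.6 CPM per kilobase), Dlg4 (42.02 ± 4.46), Homer1 (39.6 ± 4.01), Shank1 (20.5 ± 5.16), Dlgap3, Shank3, Dlgap1, Shank2, Homer2 and Homer3 (SD, n = 4 each). Shank1 lay above Homer1 in every accumbens library and below it in every dorsal striatum library on this scale. Per kilobase of the longest coding transcript, Shank1 lay below Homer1 in all 8 libraries, with 32.6, 38.7, 46.3 and 30.4 CPM per kilobase for Shank1 and 49.7, 51.9, 51.4 and 47.97 for Homer1 in accumbens. The lengths used for Homer1 were 11976 bases of merged exons and 5713 bases of that transcript. On the merged-exon scale, neighbours whose ranges overlapped in accumbens were Dlg4 and Shank1 and the run from Dlgap3 to Dlgap1. In dorsal striatum they were Dlg4 and Homer1 and the run from Shank1 to Shank2. Compared within libraries, Dlg4 lay above Shank1 in every accumbens library and Shank3 above Dlgap1 in every dorsal striatum library. The other overlapping neighbours changed order between libraries and have no firm order. Per kilobase of the longest coding transcript, Shank3 lay below Dlgap1 in every dorsal striatum library. By mean level over the 8 libraries Dlg2 was above 96.9% and Homer2 above 20.8% of the 11584 tested genes with an annotated length.

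Within regions most pairs of scaffold genes deviated in the same direction. After each region's mean was subtracted, the correlation of log2 CPM over the 8 libraries was positive for 28 of 36 pairs of scaffold genes, with a median of 0.46 and the highest value between Shank2 and Dlg2 (0.899). The values of Homer1 with the other 8 genes ran from -0.19 (Shank1) to 0.43 (Shank3). All 9 genes were above their region's mean in accumbens 3, the most deeply sequenced accumbens library, and 8 of 9 in dorsal striatum 4, the most deeply sequenced dorsal one. In accumbens 1, the shallowest of its region and the one with the highest glial marker level, 1 of 9 was. The number was 7 in accumbens 2, 2 in accumbens 4, 3 in dorsal striatum 1 and 4 in dorsal striatum 2. It was 5 in dorsal striatum 3, the shallowest library of all. The glial score was 0.15 in accumbens 4, against 0.41 in accumbens 2. The part of depth and glial RNA in this was not tested, and these correlations share libraries and scaling. The share of positive pairs among other genes was not computed, so the pattern cannot be called particular to the scaffold genes. Of 6268 other genes averaging at least 20 CPM, those closest to Homer1 by this measure were Scaper (0.957), Pptc7 (0.9204), Senp2 (0.904), Prmt8 (0.902) and Morf4l2 (0.901). None of these was called between regions (adjusted p = 0.232 to 0.987, edgeR). The coefficient of variation of Homer1 was 3.59% in accumbens and 10.1% in dorsal striatum, so these correlations rest mostly on the dorsal striatum libraries. They are also the highest among many genes over only 8 libraries, and are a description.

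Among the ligands of Homer, which Homer1 tethers, Itpr1, the inositol trisphosphate receptor of the endoplasmic reticulum, stood at 1119.6, 1268, 1239 and 1219 CPM in accumbens, against 1639, 1990.0, 2314 and 1661 CPM in dorsal striatum (log2 fold change -0.65, SE 0.12, with adjusted p = 0.00229, edgeR). The regions did not overlap. For Grm5, a group I metabotropic glutamate receptor, the log2 fold change was -0.26 ± 0.14 SE (adjusted p = 0.403), and for Agap2, a GTPase-activating protein, 0.31 ± 0.14 SE (adjusted p = 0.276).

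Of 27 tested partners of Shank, SAPAP and PSD-95 in the density, 2 were lower in accumbens and 0 higher, with a median log2 fold change of -0.08, where 2.19% of all tested genes were called lower and 1.63% higher. The lower genes were Anks1b, which encodes AIDA-1, a PSD-95 binding protein (1131 ± 109.7 CPM in accumbens and 1748 ± 201 CPM in dorsal striatum, SD, n = 4 each, log2 fold change -0.63, SE 0.11, with adjusted p = 0.00200, edgeR), and Cyld, a deubiquitinase of the density (-0.51 ± 0.13 SE, adjusted p = 0.0309). With the glial score in the fit Anks1b had a log2 fold change of -0.53 (adjusted p = 0.0805) and Cyld of -0.38 (adjusted p = 0.539). The call of Cyld was also lost without accumbens 1, 3 or 4 or dorsal striatum 1, 3 or 4 (adjusted p = 0.0748 to 0.135), and without both accumbens 2 and dorsal striatum 3 (adjusted p = 0.0541). The abundant Sipa1l1, a Rap GTPase-activating protein, and Cnksr2, a Ras pathway scaffold, had log2 fold changes of 0.08 ± 0.13 and -0.08 ± 0.11 SE (adjusted p = 0.849 and 0.830). Among the 4 other Dlg and Dlgap genes none was called, with log2 fold changes from -0.06 (Dlgap2) to 0.19 (Dlgap4), DESeq2 and limma-voom calling 0 as well and 0 having an unadjusted p under 0.05 in edgeR.

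The list of membrane partners of PSD-95, which also includes the secreted Lgi1, gave 2 lower and 0 higher calls among 15 genes. It had 13 negative log2 fold changes and a median of -0.31. Over all tested genes 2.19% were called lower, 51.8% of log2 fold changes were above 0 and the median was 0.02. The called genes were Nlgn1, an adhesion protein that binds neurexins (159 ± 23.7 CPM in accumbens and 238 ± 29.4 CPM in dorsal striatum, SD, n = 4 each, adjusted p = 0.0225, edgeR), and Lrrtm2, another neurexin ligand (74.5 ± 12.5 CPM in accumbens and 116 ± 14.1 CPM in dorsal striatum, adjusted p = 0.0353). The call of Nlgn1 was lost without accumbens 1, 3 or 4 or dorsal striatum 4 (adjusted p = 0.0737 to 0.0910). With the glial score in the fit Nlgn1 had a log2 fold change of -0.51 (adjusted p = 0.328) and Lrrtm2 of -0.74 (adjusted p = 0.129), and neither was called. The call of Lrrtm2 was also lost without accumbens 1, 3 or 4 or dorsal striatum 1, 2 or 4 (adjusted p = 0.0756 to 0.121). The NMDA receptor subunit gene Grin2b, at 400.0 ± 31.3 CPM in accumbens and 485 ± 64.3 CPM in dorsal striatum, was not called (adjusted p = 0.290). Among 8 genes for the lipid modification and turnover of PSD-95, edgeR, DESeq2 and limma-voom each called 0, and 1 had an unadjusted p under 0.05 in edgeR.

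Activity-regulated genes were set beside Homer1 because its short form belongs to them. Of 10 tested, 1 was lower in accumbens and 0 higher, where 2.19% of all tested genes were called lower and 1.63% higher. The median log2 fold change was -0.32, with 3 values positive and 7 negative. The positive ones, Fos (0.82), Npas4 (0.62) and Fosb (0.13), were not called (adjusted p = 0.440 to 0.928, edgeR). Egr1, an immediate early transcription factor gene, stood at 1009, 818, 727 and 854 CPM in accumbens, against 1728, 1401, 1326 and 1465 CPM in dorsal striatum (log2 fold change -0.80, SE 0.12, with adjusted p = 4.48e-04, edgeR). Other members varied widely between libraries of a region, such as Nr4a1 at 93.2 ± 46.04 CPM in accumbens and 137 ± 75.4 CPM in dorsal striatum (SD, n = 4 each, adjusted p = 0.672), and Dusp1 at 79.8 ± 24.6 CPM in accumbens and 124 ± 29.9 CPM in dorsal striatum (adjusted p = 0.140).

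**Figure D4:**
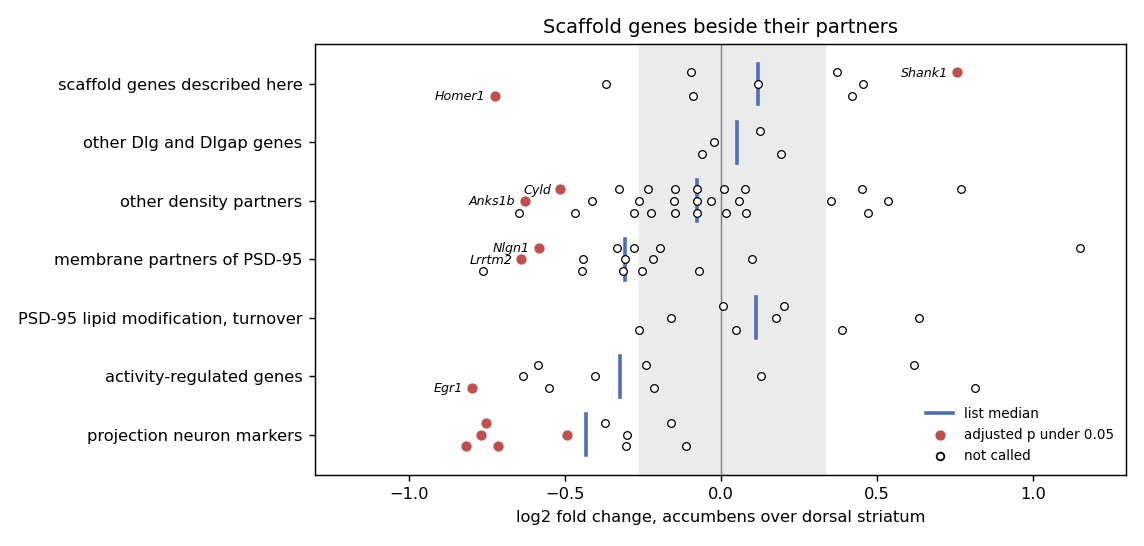
Log2 fold change, accumbens over dorsal striatum, of the tested scaffold genes and of the lists set beside them (points, red where the adjusted p is under 0.05, with names except in the last row), list medians (blue bars) and the middle 50% of all tested genes (grey). The calls in the partner lists all lie left of 0, as does Homer1, and Shank1 is the 1 named point to the right.

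Shank1 and Homer1 kept their calls with scaling by relative log expression or the upper quartile, with no or a stricter filter on low counts, in DESeq2 and limma-voom, and in libraries thinned to the smallest total. For these settings the log2 fold change of Shank1 lay between 0.74 and 0.76 and that of Homer1 between -0.73 and -0.68. Genes that were not called moved more in limma-voom, where Dlgap3 was at -0.28, Homer2 at 0.65 and Shank3 at -0.13. With the indirect-pathway covariate the log2 fold changes of Shank2, Homer2, Dlgap1 and Shank3 were 1.24, 1.48, 0.95 and 0.61, and none was called.

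**Figure D5:**
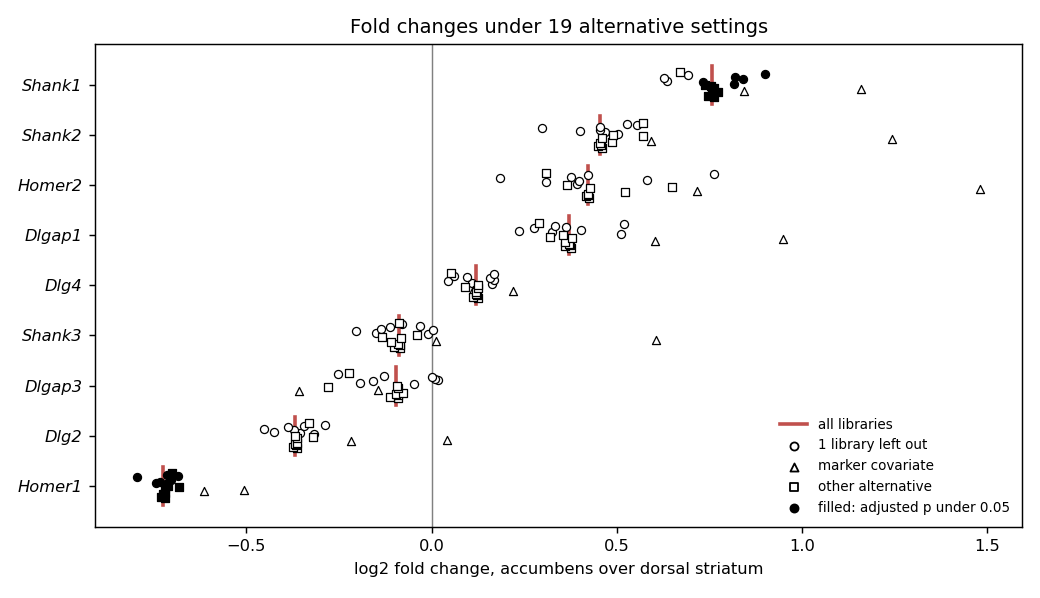
Log2 fold change of each tested scaffold gene with all libraries (red line) and under 19 alternatives (circles, 1 library left out; triangles, a marker covariate; squares, other settings; filled where the adjusted p is under 0.05). Every Homer1 symbol is left of -0.50 and every Shank1 symbol right of 0.60, and Shank3 and Dlgap3 lie on both sides of 0.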

How the data were processed

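Per the labels' protocols, tagged polysomes were immunopurified from dissected nucleus accumbens and dorsal striatum. The deposited values are raw read counts per gene symbol, not normalized by the authors, 1 table per library. The submitters' processing notes name STAR 2.0.0e, HTSeq and the mm10 build. The annotation and strand setting are not given in the sources used here. Reads that HTSeq assigned to no gene were left out. They made up 35.5% to 40.6% per accumbens library and 27.1% to 33.8% per dorsal striatum library. These ranges did not overlap, so this share and region cannot be told apart, and its part in the results was not tested.

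Libraries were grouped by title. All 12467 genes left by filterByExpr (minimum count 10) were fitted in edgeR 4.0.16 (R 4.3.3; TMM, quasi-likelihood F test, region as the only term), with Benjamini-Hochberg adjustment over all of them. The fit was tested on simulated data. Log2 CPM used a prior count of 2. Exon lengths, overlaps and coordinates (1-based) come from GENCODE M21, on GRCm38 like mm10. No 2 replicates agreed within sampling noise (chi-square per degree of freedom at least 16.2). Alternatives included DESeq2 1.42.0 and limma 3.58.1.

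Genes named beside the scaffolds are, per list, up to 4 called with the largest change and up to 3 with the highest CPM, and the 5 nearest to the member with the smallest p. Not every gene the rule takes is described. Members and lists were chosen with earlier results of these data known. Insyn1 was not matched by symbol. Some results of the partner lists are not reported here.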

Additional observations from a re-analysis of the deposited data

How the results depend on the processing

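With edgeR's fit of all 8 libraries 476 genes were called, 203 higher and 273 lower in accumbens. DESeq2 called 795 genes, 392 of them higher. The glial marker covariate, which partly follows region, left 155 genes called (60 higher and 95 lower) and 0 scaffold genes, higher or lower. The indirect-pathway covariate, which separates the regions, left 4 genes called (1 higher and 3 lower) and 0 scaffold genes. Without accumbens 2 and dorsal striatum 3 together, 1 scaffold gene, Homer1, was called and 0 were called higher. With single libraries left out the number of called scaffold genes was 1 to 2, with 0 to 1 higher, and the number of all called genes 343 to 433.

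Log2 fold changes that turned sign were never called. These were Shank3 with the glial covariate (0.0125), the indirect-pathway covariate (0.61) and without accumbens 4 (0.00335), and Dlg2 with the indirect-pathway covariate (0.0417). Dlgap3 turned without accumbens 4 (0.0165), dorsal striatum 1 (0.00905) or dorsal striatum 2 (2.24e-05). Drd2, a member of the indirect-pathway covariate, turned with it (-0.24). Over single libraries left out, Shank3 ran from -0.205 to 0.00335 and Dlgap3 from -0.253 to 0.0165. The causes were not tested. The other alternatives kept the direction of the 9 scaffold genes. Same-numbered libraries of the regions did not deviate together (correlations -0.08 to 0.01). The labels do not say whether the numbers mark a shared animal, and these correlations cannot settle it. With the replicate number as a block, 474 genes and 2 scaffold genes were called, and of the partner genes described Cyld lost its call (adjusted p = 0.0599). Scaling of family shares by the longest coding transcript or by raw counts moved 19 and 15 of 28 mean shares by more than 1 SD. No replicate stood apart in a Dixon test at its 95% limit in 18 groups of gene levels. Homer2, with 55 to 268 counts per library, had the largest SE of the 9 scaffold genes (0.36), and Homer3 was too low to test.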
